A study of Mus musculus with 8 samples.

Results

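The comparison described here is that of NDP-MSH with phosphate-buffered saline (PBS) in the brain of mice with the C57BL/6Je/e genotype (e/e), on 4 of the 8 arrays of the study. The members are the 2 arrays labelled C57BL/6Je/e + NDP-MSH and the 2 labelled C57BL/6Je/e + PBS, compared across 22180 genes. The other 4 arrays hold 2 wild-type samples given PBS and 2 given NDP-MSH. All mice, controls included, were immunized with myelin oligodendrocyte glycoprotein (MOG), and total brain was taken on day 14, which the labels call the maximum of disease. NDP-MSH was injected into a vein, 5 µg per mouse each time, on days 8, 10 and 12. Mice were assigned to a genotype by coat colour, black for wild-type and yellow for e/e. The labels give neither age nor sex, and no source states that the arrays of a group came from separate animals. The p-values thus reflect a spread between samples that may be technical. The 2 e/e PBS arrays differed in Y-linked transcripts, with Uty at -0.14 in PBS 1 and 2.32 in PBS 2 (log2, centred per gene).

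The e allele is a loss-of-function allele of Mc1r, the melanocortin receptor that switches pigment cells to black pigment, and NDP-MSH is a stable peptide agonist, derived from alpha-MSH, of melanocortin receptors other than the ACTH receptor. Immunization with MOG leads T cells into the central nervous system, where the interferon gamma they release induces guanylate-binding proteins, immunity-related GTPases, antigen presentation and chemokines in resident and infiltrating cells. The comparison shows how brain transcripts of treated and untreated animals differed where this receptor does not function.

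The transcripts farthest below PBS in e/e brain after NDP-MSH, Xist aside, included genes of interferon-induced defence, antigen presentation, myeloid cells and reactive glia, and the distance depended on the PBS array. Both NDP-MSH arrays lay at least 1.5-fold below e/e PBS 2, and not e/e PBS 1, for 332 genes. Of these, 130 belong to a gene list used here, beside 704 of all 22180 genes. The lists were chosen with earlier results of these data known. The NDP-MSH arrays lay at least 1.5-fold below both PBS arrays for 9 genes. Of these 9, 8 were inflammatory (Chil3, H2-Ab1, Igtp, Irgm2, Gbp10, Cxcl10, Zbp1 and Iigp1) and the other was Xist, the transcript of the inactive X chromosome. The 2 genes at least 1.5-fold above both PBS arrays, Uty and Eif2s3y, are on the Y chromosome. No gene passed the test with both PBS arrays in the group.

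Each value is a log2 value centred on the gene's median over the 8 arrays, so it shows how arrays differ and not how abundant a transcript was. Differences are NDP-MSH minus PBS, as log2 with the SE of a limma fit over all 8 arrays (2 arrays in each group). The nearest difference of a gene is the smallest of its 4 differences between an NDP-MSH and a PBS array, and exists where the groups do not overlap. The tissue label was checked against its markers: probe sets with signals that reached 8 on every array were found for 13 of 14 pan-neuronal genes, 16 of 17 myelin genes and 13 of 14 homeostatic astrocyte genes. Such a probe set was found for 6451 of all 22180 genes, and for 22 of 29 respiratory chain genes. In total brain RNA, fewer cells of a type and less RNA per cell cannot be told apart.

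The e/e PBS arrays differed by at least 1.5-fold in more genes than the arrays of any other group, with 581 genes (2.62%), 414 of them higher in PBS 2, against 211 genes between the wild-type PBS arrays, 307 within the wild-type NDP-MSH pair and 119 within the e/e NDP-MSH pair (0.537%). At 2-fold the 2 e/e PBS arrays differed for 197 genes and the 2 e/e NDP-MSH arrays for 12. The e/e NDP-MSH arrays were thus close to each other, and the result of subtracting PBS depended on which PBS array was taken.

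With both PBS arrays, limma called 0 of 22180 genes at an adjusted p under 0.05 (0%). The smallest adjusted p was 0.562, and 789 genes had an unadjusted p under 0.05 (3.56%), 395 of them higher and 394 lower after NDP-MSH. The median difference over all genes was 0.008, with 10272 genes lower (46.3%) and 11908 higher (53.7%). Both NDP-MSH arrays lay below both PBS arrays for 3172 genes (14.3%) and above both for 3543 (16%), mostly by small distances. These shares are the background against which counts of single gene groups are read below.

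Leaving out 1 array changed the count of calls. Without e/e PBS 1, limma called 51 genes, 48 lower and 3 higher after NDP-MSH, and these included 40 of the 332 genes that lay 1.5-fold below PBS 2 alone and 8 of the 9 below both. The smallest adjusted p then was 0.00294, for Ccl2, the monocyte-attracting chemokine, and Slfn4, an interferon-induced Schlafen gene of myeloid cells. Without e/e PBS 2, limma called 4 genes, and all 4 are sex-linked: Xist (-5.07 ± 0.40 SE, adjusted p = 0.0273), Eif2s3y (2.84 ± 0.10 SE, adjusted p = 0.000197), Uty (3.43 ± 0.11 SE, adjusted p = 0.000197) and Kdm5d (2.50 ± 0.10 SE, adjusted p = 0.000364). Without e/e NDP-MSH 1 or 2 the count was 0. In each of these fits the lone array of a group is assumed to vary like the other groups. Without e/e PBS 1, both NDP-MSH arrays are set against PBS 2 alone, as in the definition of the genes 1.5-fold below PBS 2. The overlap of those calls with these genes was therefore largely built in.

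**Figure D1:**
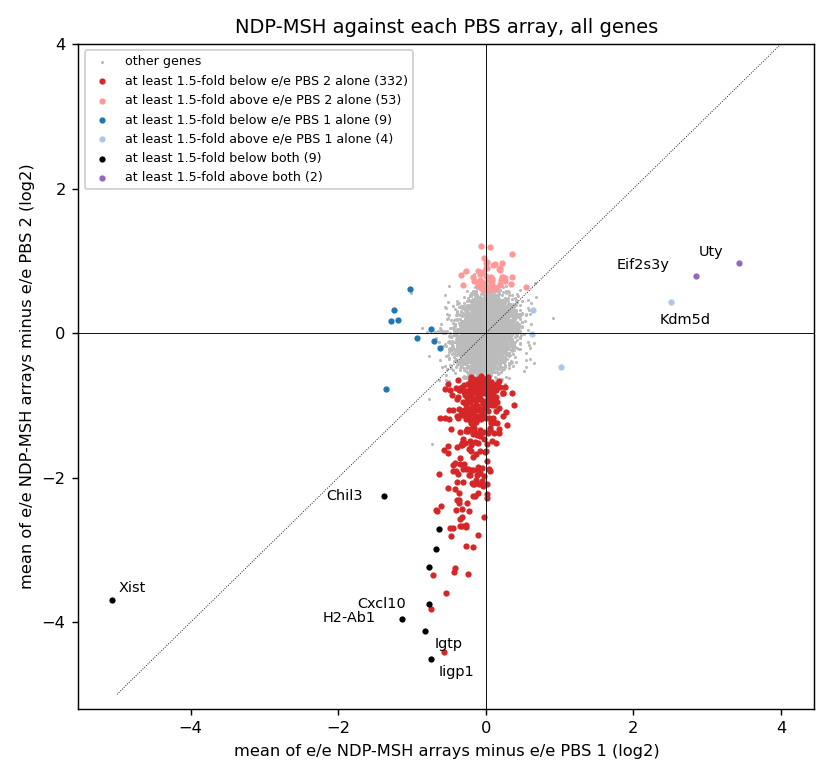
Each point is a gene, with the mean of the 2 e/e NDP-MSH arrays minus e/e PBS 1 on the x axis and minus e/e PBS 2 on the y axis (log2); the dotted line marks equal differences, and colours mark genes whose NDP-MSH arrays both lie at least 1.5-fold from 1 or both PBS arrays. The 332 genes below PBS 2 alone form a vertical band near 0 on the x axis, and Xist, Uty, Eif2s3y and Kdm5d lie apart from all others along the x axis.

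Sex-linked transcripts separated the arrays of this comparison. Xist had values of 0.56 and -0.82 in e/e PBS 1 and 2, against -4.46 and -4.56 in the treated e/e arrays. The groups did not overlap, and the nearest difference of -3.64 was the largest of all genes, but the adjusted p was 0.562 (difference -4.38 ± 0.48 SE). The lowest wild-type value of Xist was -0.56, in NDP-MSH 2.

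The Y-linked genes ran the other way. Uty, a histone demethylase gene, had -0.14 and 2.32 in e/e PBS 1 and 2 against 3.26 and 3.31 in the treated arrays. Eif2s3y, a translation initiation factor gene, had -0.02 and 2.04 against 2.78 and 2.87. Kdm5d, also a histone demethylase gene, had -0.01 and 2.07 against 2.50 and 2.49, whereas Usp9y lay between -0.03 and 0.07 on the 4 arrays. Thus e/e PBS 1 had the high Xist and low Y-linked values seen in most wild-type arrays, both NDP-MSH arrays had low Xist and high Y-linked values, and e/e PBS 2 lay between them in Xist while carrying Y-linked signal. The labels do not say whether an array held RNA of 1 animal or of a pool, and every difference from e/e PBS 2 is read with that limit. X-linked genes with a Y-linked partner had smaller differences: Kdm6a of -0.37 ± 0.11 SE and Kdm5c of -0.32 ± 0.14 SE, both with adjusted p = 1. These transcripts thus set e/e PBS 1 apart from both NDP-MSH arrays. In Uty, Eif2s3y and Kdm5d, e/e PBS 2 lay nearer to the NDP-MSH arrays than to PBS 1, so these genes did not simply follow treatment. For other genes, a difference that goes with sex and one that goes with NDP-MSH cannot be told apart here. The interferon-induced GTPases described below had medians of -1.65 in e/e PBS 1, 0.67 in PBS 2 and -1.94 and -1.96 in the NDP-MSH arrays, and the part of sex in those differences was not tested.

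**Figure D2:**
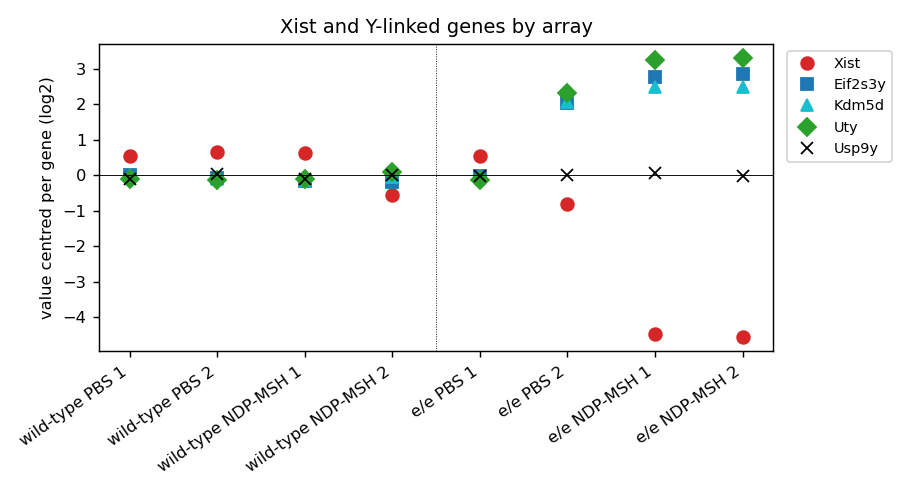
Values of Xist and 4 Y-linked genes (log2, centred per gene) on each of the 8 arrays. Uty, Eif2s3y and Kdm5d are at 2.04 or above in e/e PBS 2 and both e/e NDP-MSH arrays and near 0 elsewhere, and Xist is below -4 in both e/e NDP-MSH arrays.

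The genes below both PBS arrays by at least 1.5-fold numbered 9 of 22180 (0.0406%). Leaving out Xist, their nearest differences corresponded to 1.51-fold (Iigp1) to 2.11-fold (Chil3). The limit of 1.5-fold is a log2 distance of 0.585: Iigp1 lay just inside it at -0.592, and C4b just outside at -0.584. Each of the 8 had an adjusted p of 1 in the limma fit with both PBS arrays.

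Interferon-responsive promoters commonly carry an element that interferon-activated factors bind, whose core was searched as GAAANNGAAA on both strands of the 300 bases from 250 before to 50 after each RefSeq gene start (GRCm38.p6). Of the 8 inflammatory genes, 4 had a window, and 3 of these held the core, against 657 of 16990 genes with a window (3.87%). The surrounding 60 bases of those 3 are shown on each gene's own strand, with the core in capitals, because they are the members of this set whose windows hold the core. The core begins 213 bases before the gene start in Cxcl10 (chr5:92349068-92349127, minus strand), 34 before it in Igtp (chr11:58199497-58199556, plus strand) and 64 before it in Irgm2 (chr11:58214888-58214947, plus strand).
Cxcl10: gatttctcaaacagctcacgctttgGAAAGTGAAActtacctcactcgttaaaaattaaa
Igtp: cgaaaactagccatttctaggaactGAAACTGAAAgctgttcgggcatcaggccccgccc
Irgm2: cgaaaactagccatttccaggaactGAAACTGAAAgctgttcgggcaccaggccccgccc
The stretches of Igtp and Irgm2, which lie close together on chromosome 11, share the same base at 58 of 60 positions. The window of Chil3 held no such core. The gamma-activated site, searched as TTCNNNGAA on both strands, was in 3 of the 4 windows (75%), Chil3 included, against 1555 of 16990 (9.15%).

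Among the 332 genes lower than PBS 2 alone, 50 of 253 with a window held the core (19.8%), against 1 of 38 among the genes higher than PBS 2 alone (2.63%). The gamma-activated site was in 33 of the 253 (13%) and 3 of the 38 (7.89%). Of the 12 measured interferon-induced GTPases, 6 had a window: all 6 held the core and 4 the gamma-activated site (66.7%). These matches describe the letters of the windows.

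Chil3, a chitinase-like protein of alternatively activated macrophages, had -1.05 and -0.17 in e/e PBS 1 and 2 and -2.13 and -2.73 in NDP-MSH 1 and 2. The groups were apart and PBS 1 lay nearer to the NDP-MSH arrays than PBS 2 did (difference -1.82 ± 0.45 SE, adjusted p = 1). H2-Ab1, the beta chain of MHC class II, had -2.39 and 0.43 in PBS 1 and 2 against -3.33 and -3.72 (difference -2.55 ± 0.80 SE, adjusted p = 1). For H2-Ab1 the 2 PBS arrays were farther from each other than PBS 1 was from either NDP-MSH array, and the same held for the following 6 genes.

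Immunity-related GTPases, which attack the vacuoles of intracellular parasites, included Igtp, with -2.50 and 0.81 in e/e PBS 1 and 2 and -3.36 and -3.28 in NDP-MSH 1 and 2. Its distance was 1.77-fold from PBS 1 and 17.5-fold from PBS 2. Irgm2 had -1.82 and 0.49 against -2.49 and -2.50, or 1.59-fold and 7.91-fold. Iigp1 had -2.43 and 1.34 against -3.33 and -3.02, or 1.68-fold and 22.8-fold. In these 3 genes both NDP-MSH arrays agreed closely, and the size of the difference was set by the PBS array chosen.

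Gbp10, a guanylate-binding protein gene, had -1.82 and 0.64 in e/e PBS 1 and 2 and -2.71 and -2.48 in NDP-MSH 1 and 2. Cxcl10, the interferon-induced chemokine that attracts activated T cells, had -2.09 and 0.89 against -2.72 and -3.00, or 1.70-fold below PBS 1 and 13.5-fold below PBS 2. Zbp1, a sensor of Z-form nucleic acids, had -1.54 and 0.54 against -2.18 and -2.16. For these genes too, e/e PBS 1 lay nearer to the treated arrays than to the other PBS array.

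Against the wild-type arrays, e/e PBS 1 and both NDP-MSH arrays were below all 4 for each of the 8 genes, while e/e PBS 2 lay within the wild-type range for 5, above it for 2 and below it for 1. Over all genes, the share below all 4 wild-type arrays was 18.5% for e/e PBS 1, 24.5% for PBS 2, 18.3% for NDP-MSH 1 and 21.6% for NDP-MSH 2, and 17.8% lay above all 4 in PBS 2. The 1.5-fold distance from e/e PBS 1 was lost for all 8 when the deposited values were quantile-normalized. The nearest difference became -0.49 for Chil3, -0.18 for H2-Ab1, -0.15 for Zbp1, -0.07 for Gbp10 and -0.04 for Irgm2. Igtp, Cxcl10 and Iigp1 no longer had groups apart. That normalization acts on centred values and can shrink real differences.

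The next genes below the limit were of the same kind. C4b, a complement component, had -1.59 and 0.19 in e/e PBS 1 and 2 and -2.17 and -2.35 in NDP-MSH 1 and 2. Mpeg1, the pore-forming perforin-2 of macrophages, had -1.49 and 0.30 against -2.13 and -2.06. Serpina3n, a protease inhibitor of reactive astrocytes, had -1.54 and 0.26 against -2.06 and -2.35. Ccl3, a chemokine of activated microglia and macrophages, differed in pattern, since its PBS arrays lay closer together, with -0.31 and 0.24 against -0.86 and -1.0. Its difference had the smaller error (-0.89 ± 0.17 SE), although the adjusted p was 1, and its nearest difference under quantile normalization was -0.32. Slc15a3, a lysosomal transporter of bacterial peptides, had -0.56 and 0.49 against -1.07 and -1.18.

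**Figure D3:**
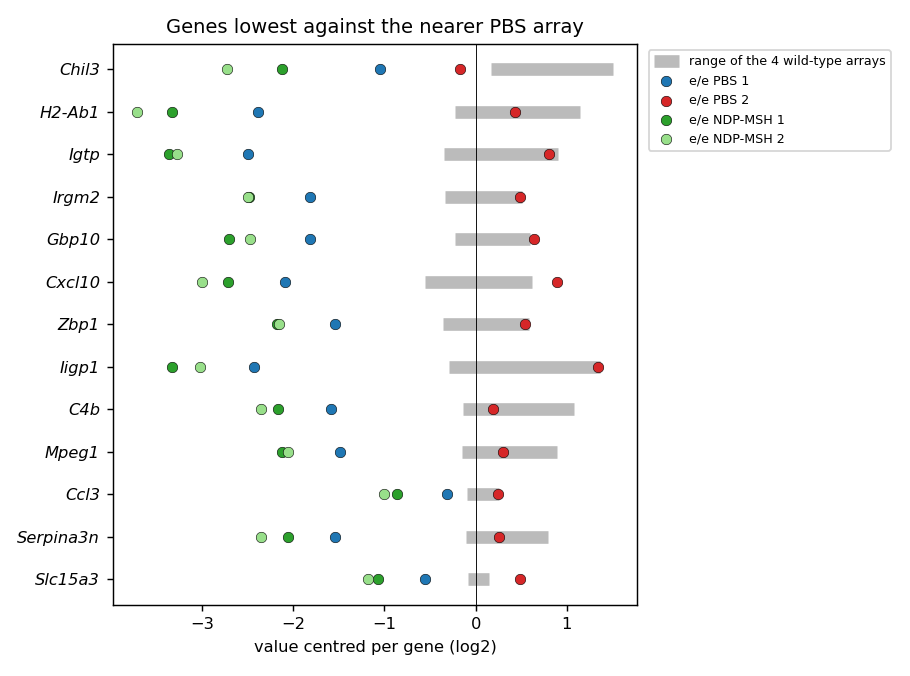
Values (log2, centred per gene) of the 13 genes, Xist aside, with the largest nearest differences below both e/e PBS arrays; points are single e/e arrays and grey bars span the 4 wild-type arrays. In every gene e/e PBS 1 (blue) lies between the NDP-MSH arrays (green) and e/e PBS 2 (red), and for all but Chil3 and Ccl3 it is nearer to the NDP-MSH arrays.

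The genes that rested on e/e PBS 2 alone numbered 332 (1.5%) in the lower direction. Their median difference was -1.10 from PBS 2 and -0.15 from PBS 1. PBS 1 lay above both NDP-MSH arrays for 210 of them, between them for 84 and below both for 38. Compared with the wild-type arrays, e/e PBS 1 was below all 4 for 314 of the 332 genes, NDP-MSH 1 for 318 and NDP-MSH 2 for 319, whereas e/e PBS 2 was within the wild-type range for 201 and above it for 110, beside the shares over all genes given above. So for most of these genes e/e PBS 1 and the treated arrays shared the low position, and e/e PBS 2 was like wild-type or higher. The set was chosen for treated arrays below PBS 2, so the places of these arrays were partly built in.

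Lilrb4a, an inhibitory receptor of myeloid cells, led this set, with -2.72 in e/e PBS 1, 1.13 in PBS 2, and -3.19 and -3.39 in NDP-MSH 1 and 2. Cxcl9, a T cell-attracting chemokine induced by interferon gamma, had -2.03 and 1.04 against -2.54 and -3.01. Cd274, which encodes the checkpoint ligand PD-L1, had -2.06 and 0.72 against -2.22 and -2.26, so that their mean differed by -0.18 from PBS 1 and by -2.96 from PBS 2. Tap1, the peptide transporter of MHC class I loading, had -1.70 and 0.72 against -1.93 and -2.0. The others that led by distance were Ifi205 and Ifi209 (interferon-induced), Cybb (the phagocyte oxidase subunit), Clec7a (the beta-glucan receptor), Ccl5 (a T cell chemokine) and Gbp7, whose differences ran from -0.70 to -0.27 against PBS 1 and from -3.35 to -2.66 against PBS 2.

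In the opposite direction, 53 genes (0.239%) lay at least 1.5-fold above e/e PBS 2 alone. Cckbr, a cholecystokinin receptor of neurons, had 0.11 in e/e PBS 1, -1.16 in PBS 2, and 0.20 and -0.11 in NDP-MSH 1 and 2. Lamp5, a membrane protein of cortical interneurons and other forebrain neurons, had 0.16 and -0.90 against 0.31 and -0.03, and Kcnv1, a potassium channel subunit, had 0.10 and -1.04 against 0.36 and -0.06. PBS 1 overlapped the NDP-MSH arrays in all 3. Dkkl1, Gcnt4 and Slc5a7, the choline transporter of cholinergic neurons, were above both PBS arrays, by 0.13, 0.17 and 0.11 at the nearest. PBS 2 was below all 4 wild-type arrays for 46 of the 53 genes, beside 5444 of all 22180. The set was chosen for a low PBS 2, so this position was partly built in. Of these 53 genes 33 had a probe set whose signal reached 8 on every array (62.3%), against 36 of the 332 lower ones (10.8%) and 6451 of all 22180. A gene that dipped below 8 on any array does not count here.

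Against e/e PBS 1 alone, 9 genes were at least 1.5-fold lower (0.0406%) and 4 higher (0.018%). Of the 9, 7 were small RNA genes. The other two were Rsl1, a zinc finger repressor gene (0.59 and -0.01 in PBS 1 and 2, -0.19 and -0.04 in NDP-MSH 1 and 2), and Sdf2l1, an endoplasmic reticulum chaperone (0.48 and 0.07 against -0.14 and -0.14). The 4 higher genes were Kdm5d, Slc6a4, Atp6v1fnb and the microRNA gene Mir493, the last chosen here after its values were seen. Slc6a4, the serotonin transporter, had -0.40 and -0.08 against 0.23 and 0.26. No inflammatory gene was in either set.

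Apart from the Y-linked genes, the interferon-induced GTPases were the gene list with the largest median difference from the PBS arrays. Their medians were -1.65 in e/e PBS 1, 0.67 in PBS 2, -1.94 in NDP-MSH 1 and -1.96 in NDP-MSH 2, and between -0.29 and 0.60 in the wild-type arrays. All 12 measured members were lower than each PBS array taken alone on average, with a median of -0.35 from PBS 1 and -2.60 from PBS 2, beside -0.001 and 0.018 over all genes. Both NDP-MSH arrays lay below both PBS arrays in 10 of 12, against 14.3% of all genes, and 0 of 12 passed the test. Gbp3 and Gbp4 were the 2 that overlapped PBS 1. Gbp6 lay at -0.00 and 0.00 in the PBS arrays and at -0.23 and -0.17 in the NDP-MSH arrays, so it did not share the spread between the PBS arrays. Probe sets of such close relatives can share sequence, and their values are not independent.

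The type I interferon-stimulated genes, which encode antiviral effectors, had medians of -0.66, 0.53, -0.69 and -0.84 in e/e PBS 1, PBS 2, NDP-MSH 1 and NDP-MSH 2. All 25 members were lower than PBS 2, with a median of -1.19, but 16 of 25 were lower than PBS 1, with a median of -0.15. The groups were apart, with NDP-MSH lower, in 16 members, beside 14.3% of all genes. Among the 16 were Zbp1 and Bst2, which tethers budding virus (-1.31 and 0.36 against -1.73 and -1.68). Irf7, the master factor of the response, was another (-1.57 and 0.36 against -2.06 and -1.85). Ifit3 was the member with the smallest p, with 0.02 and -0.02 in the PBS arrays against -0.32 and -0.28. Mx1 had -0.03 and 0.53 against -0.18 and -0.39. By contrast Oas2, Oasl1, Mx2 and Trim30a lay 0.08 to 0.15 above PBS 1. None passed the test.

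Upstream of these genes, the interferon gamma receptor and transcription factor list had 13 of 13 members lower on average, with a median of -0.04 from PBS 1 and -0.62 from PBS 2. Nlrc5, the activator of MHC class I genes, had -0.55 and 1.09 in e/e PBS 1 and 2 and -1.04 and -1.08 in NDP-MSH 1 and 2. Irf1, the first factor of the interferon gamma response, had -0.91 and 0.82 against -1.05 and -1.24. Irf9 and Stat2, parts of the complex that binds the interferon-stimulated element, differed by -0.20 and -0.19 from PBS 1 and by -1.24 and -1.20 from PBS 2. The difference from PBS 1 was larger for Nlrc5, at -0.51.

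**Figure D4:**
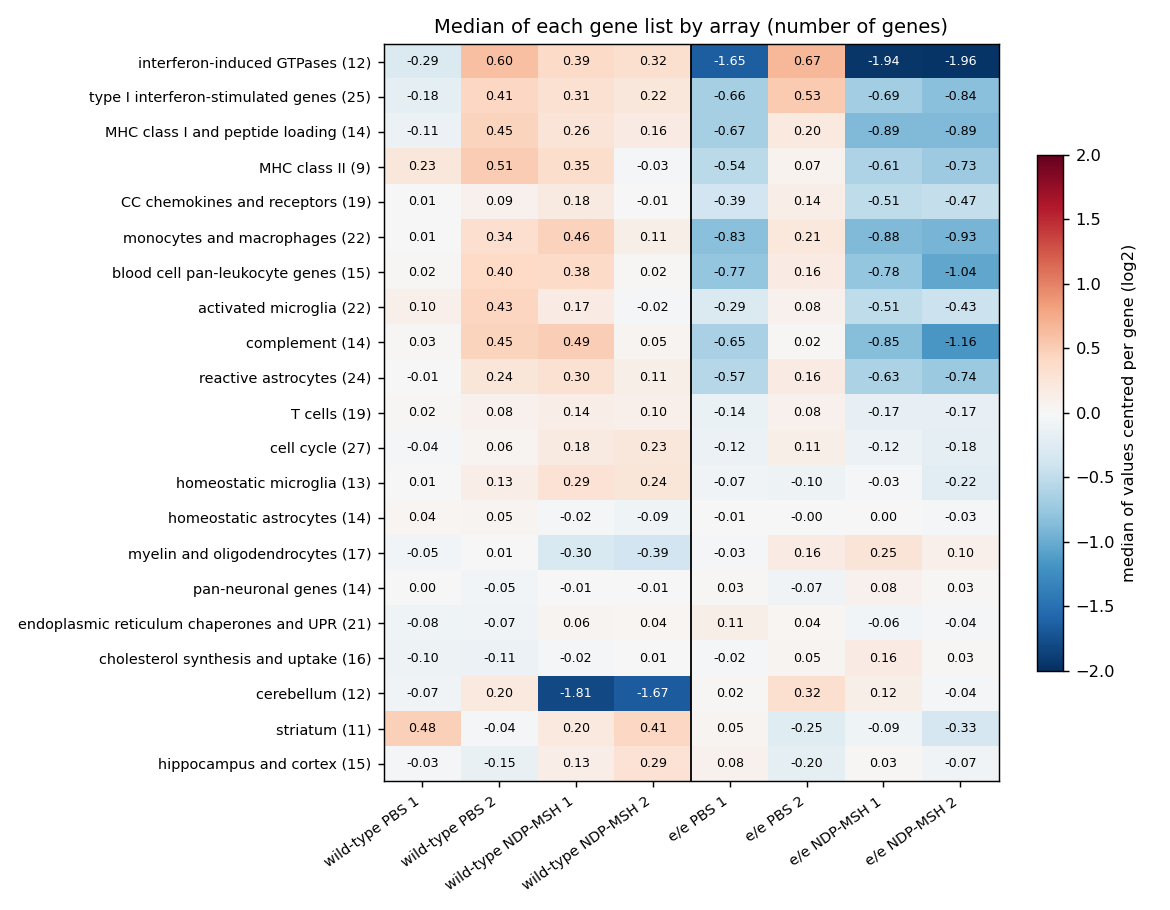
Median of 21 gene lists (log2, centred per gene; number of measured genes in brackets) on each array, with wild-type arrays to the left of the line and e/e arrays to the right. The 10 upper lists, from the GTPases to the reactive astrocytes, are low in e/e PBS 1 and both e/e NDP-MSH arrays and near or above 0 in e/e PBS 2, and the cerebellum list is low in the treated wild-type arrays and not in e/e arrays.

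Antigen presentation followed the same order of arrays. MHC class I and peptide loading genes had medians of -0.67, 0.20, -0.89 and -0.89 in e/e PBS 1, PBS 2, NDP-MSH 1 and NDP-MSH 2. Of 14 members 6 lay below both PBS arrays, beside 14.3% of all genes. H2-Q4, a nonclassical class I gene, had -0.43 and 0.27 against -0.93 and -0.92, and B2m, the light chain of class I, had -0.72 and 0.15 against -0.86 and -1.09. Of the 9 class II genes all were lower than PBS 2 and 8 lower than PBS 1, with medians of -0.49 and -0.15. H2-Aa, the alpha chain, had -2.03 and 0.20 against -2.44 and -2.32. Its partner H2-Ab1 lay farther from PBS 1 (-1.14) than H2-Aa did (-0.35), a difference between 2 genes that was not tested.

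Chemokine genes differed among themselves. In the CC family, 11 of 19 measured genes were 1.5-fold below PBS 2 alone, beside 332 of all 22180 genes (1.5%). The list median was -0.04 from PBS 1 and -0.83 from PBS 2. Ccl8, a monocyte attractant, had groups apart, with -0.16 and 0.03 in e/e PBS 1 and 2 and -0.61 and -0.74 in NDP-MSH 1 and 2, while its wild-type values ran from -0.03 to 0.75. Ccl2 had -1.08 and 0.99 against -1.09 and -1.15 and so lay beside PBS 1, with a nearest difference of -0.01. Ccl12 overlapped PBS 1, with -0.87 and 1.04 against -0.82 and -1.27. Il1b, the inflammasome cytokine, had -1.25 and 1.09 against -1.50 and -1.94, whereas the cytokine list as a whole had a median of -0.00 from PBS 1 and -0.15 from PBS 2.

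Markers of infiltrating myeloid cells were lower against PBS 2 in 21 of 22 genes (median -1.20) and against PBS 1 in 17 (median -0.12). Both NDP-MSH arrays lay below both PBS arrays in 15 of 22, beside 14.3% of all genes. Fcgr1, the high-affinity antibody receptor, had -1.02 and 0.29 in e/e PBS 1 and 2 and -1.43 and -1.88 in NDP-MSH 1 and 2. Ccr2, the receptor of inflammatory monocytes, had -0.73 and 0.06 against -1.16 and -0.88. Lyz2, the macrophage lysozyme, had -1.87 and 0.12 against -2.09 and -2.38. Nckap1l and Ikzf1, which are expressed across leukocytes, differed by -0.44 and -0.33 from PBS 1 and by -1.06 and -0.42 from PBS 2.

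Lymphoid markers had smaller medians, and no test compared them with the myeloid lists. T cell genes had medians of -0.14, 0.08, -0.17 and -0.17 in e/e PBS 1, PBS 2, NDP-MSH 1 and NDP-MSH 2. Of 19 genes 7 lay below both PBS arrays and 3 above, beside 14.3% and 16% of all genes. Cd3g, a subunit of the T cell receptor complex, had -0.69 and 0.44 against -0.98 and -0.80, and Skap1, an adaptor of T cell adhesion, was above both with -0.12 and -0.07 against 0.10 and 0.16. The NK and cytotoxic genes were lower on average in 11 of 11 (median -0.03 from PBS 1 and -0.29 from PBS 2). Of the 11, 5 lay below both PBS arrays, beside 14.3% of all genes. They included Ccl5 (-2.39 and 0.29 against -2.59 and -2.73) and Eomes (0.47 and 0.77 against 0.02 and -0.05). Eomes, a T-box factor of cytotoxic cells, is also in the olfactory bulb list used here. B and plasma cell genes had medians between -0.06 and 0.00 on the 4 arrays. Neutrophil genes were lower than PBS 1 in 12 of 15, with a median of -0.13, led by Lcn2 (lipocalin-2, also made by reactive astrocytes), which had -0.94 and -0.08 against -1.55 and -1.27. The granule gene Camp and the surface marker Ly6g lay between -0.16 and 0.10.

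Among resident glia, activated microglia genes were lower on average in 22 of 22, with a median of -0.10 from PBS 1 and -0.73 from PBS 2. Of the 22, 13 lay below both PBS arrays, beside 14.3% of all genes. Tyrobp, the adaptor of microglial receptors, had -0.58 and -0.02 in e/e PBS 1 and 2 and -0.76 and -0.86 in NDP-MSH 1 and 2. The homeostatic microglia list had a median of -0.04 from PBS 1 and 0.03 from PBS 2. In it 4 of 13 genes lay below both PBS arrays, beside 14.3% of all genes. Olfml3 (-0.03 and -0.10 against -0.31 and -0.49) and Csf1r, the receptor that keeps microglia alive (-0.44 and -0.03 against -0.59 and -0.73), were among the 4, and P2ry12, the purinergic receptor of resting microglia, overlapped (-0.30 and -0.39 against 0.16 and -0.35). Complement genes included C1qb (-0.62 and 0.00 against -0.99 and -1.35) and C1qc (-0.56 and -0.03 against -0.98 and -0.91). Of 14 complement genes 7 lay below both PBS arrays, beside 14.3% of all genes.

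Reactive astrocyte genes were lower than PBS 1 in 22 of 24 (median -0.11) and lower than PBS 2 in 23 of 24 (median -0.90). Gfap, the astrocyte filament, had -1.03 and 0.05 in e/e PBS 1 and 2 and -1.06 and -1.19 in NDP-MSH 1 and 2, so the nearest difference, from PBS 1, was -0.03. Osmr, the oncostatin M receptor, had -0.31 and 0.47 against -0.52 and -0.68. Homeostatic astrocyte genes, by comparison, had medians between -0.03 and 0.00 on the 4 e/e arrays. Of these genes 0 of 14 lay below both PBS arrays, beside 14.3% of all genes.

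Genes of protein folding in the endoplasmic reticulum were lower against both PBS arrays by a like amount, as seen also, at smaller sizes, in other lists below. Of 21 genes 21 were lower than PBS 1 (median -0.16) and 17 lower than PBS 2 (median -0.12), and both NDP-MSH arrays lay below both PBS arrays in 16, against 14.3% of all genes. Xbp1, a transcription factor of the unfolded protein response, had 0.29 and 0.25 in e/e PBS 1 and 2 and -0.14 and -0.09 in NDP-MSH 1 and 2. Its PBS arrays lay close to each other, and the difference was -0.39 ± 0.08 SE with an adjusted p of 1. Hspa5, the chaperone BiP, had 0.40 and 0.22 against -0.08 and -0.05 (difference -0.37 ± 0.08 SE, adjusted p = 1). Manf had 0.04 and 0.13 against -0.17 and -0.17, and Creld2 had 0.22 and 0.08 against -0.08 and -0.20. The differences were small beside those of the interferon genes, none passed the test, and the list median ranged from -0.18 to -0.12 over the alternatives tried.

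Cholesterol synthesis genes lay slightly higher. Of 16 genes 15 were higher than PBS 1 (median 0.13) and 12 higher than PBS 2 (median 0.07), and 7 lay above both, against 16% of all genes. Hmgcs1, the synthase of the mevalonate pathway, had 0.00 and 0.15 in e/e PBS 1 and 2 and 0.33 and 0.30 in NDP-MSH 1 and 2. Srebf2, the transcription factor of the pathway, had -0.03 and -0.21 against 0.11 and 0.15. The myelin list had 5 of 17 genes above both PBS arrays, beside 16% of all genes. Among the 5 was Ugt8a, which makes the myelin galactolipids, with 0.19 and 0.24 against 0.51 and 0.52. Mog, the antigen of the immunization, overlapped, with -0.06 and 0.13 against 0.28 and 0.12. Blood-brain barrier genes had 4 of 15 above both, beside 16% of all genes. Tfrc, the transferrin receptor, was at -0.09 and -0.10 against 0.18 and 0.13. Abcb1a, the drug efflux pump, was at -0.19 and -0.32 against -0.06 and 0.00.

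**Figure D5:**
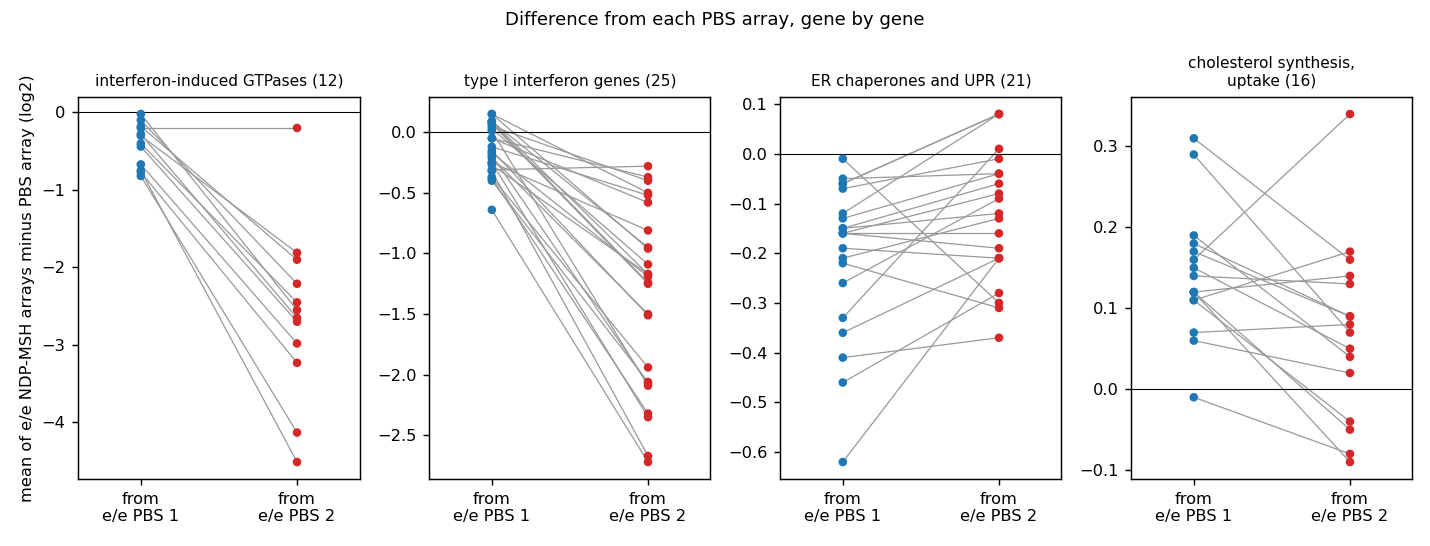
Difference of the mean of the e/e NDP-MSH arrays from e/e PBS 1 (blue) and from e/e PBS 2 (red) for each measured gene of 4 lists (log2; lines join a gene's values, number of genes in brackets, and each panel has its own y axis). Interferon genes are far lower against PBS 2 than against PBS 1, while chaperone genes lie mostly below 0 against both and cholesterol genes mostly above 0.

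Beyond Uty and Eif2s3y (0.00902% of genes), the genes highest against both PBS arrays differed by less than 1.5-fold at the nearest. Sncg, gamma-synuclein of brainstem and peripheral neurons, had 0.09 and -0.01 in e/e PBS 1 and 2 and 0.68 and 0.58 in NDP-MSH 1 and 2. Its PBS arrays lay close together, and its nearest difference was 0.49, or 1.4-fold (difference 0.59 ± 0.09 SE, adjusted p = 1). Nanos2, a germ cell RNA-binding protein gene, had -0.43 and -0.31 against 0.16 and 0.13. Tagap1, Zfp853, Psma8, Zfp994 and Psmb11 had nearest differences of 0.36 to 0.47. In the list of brainstem, spinal and cholinergic genes that holds Sncg, the medians were 0.21, -0.01, 0.21 and 0.22. In this list 4 of 13 genes lay above both PBS arrays, beside 16% of all genes. They included Dbh of noradrenaline synthesis (0.30 and -0.40 against 0.54 and 0.42) and Slc6a5, the glycine transporter (0.47 and 0.00 against 0.55 and 0.78).

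The receptors of the agonist did not differ beyond their spread. Mc1r had 0.00 and 0.04 in e/e PBS 1 and 2 and 0.00 and 0.02 in NDP-MSH 1 and 2 (difference -0.01 ± 0.09 SE). The values of Mc2r, Mc3r and Mc4r lay between -0.11 and 0.09, and Mc5r was lowest in NDP-MSH 2, at -0.46, and highest in NDP-MSH 1, at 0.13. Mrap2, an accessory protein of melanocortin receptors, was above both PBS arrays, with -0.20 and 0.01 against 0.25 and 0.32 (difference 0.38 ± 0.11 SE, adjusted p = 1). None of these genes had a probe set whose signal reached 8 on every array.

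Nr4a1, an orphan nuclear receptor that melanocortin signalling induces in several cell types, overlapped, with 0.27 and -0.61 in e/e PBS 1 and 2 and -0.04 and -0.49 in NDP-MSH 1 and 2. The immediate early genes around it were lower than PBS 1 in 22 of 23 (median -0.25), beside 50.4% of all genes. Against PBS 2 they were near the value for all genes, with 10 of 23 lower (median 0.04), beside 44.4%. Egr1 had 0.30 and -0.65 against 0.28 and -0.03, and Egr3 had 0.34 and -0.80 against 0.11 and 0.02. Both lay 1.5-fold above PBS 2 alone. Junb, an AP-1 subunit, was the member supported alike by both PBS arrays, with -0.01 and 0.01 against -0.38 and -0.38 (difference -0.38 ± 0.09 SE, adjusted p = 1). Nr4a3 had 0.42 and 0.24 against -0.02 and 0.02, and Fosl2 had 0.37 and 0.15 against -0.14 and -0.03.

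Markers of brain regions moved between the e/e arrays as well. Striatal genes were lower than PBS 1 in 11 of 11 (median -0.31) and lower than PBS 2 in 5 of 11 (median 0.11), and genes of hippocampus and cortex were lower in 12 and 5 of 15. Cerebellar genes had medians of 0.02, 0.32, 0.12 and -0.04 in e/e PBS 1, PBS 2, NDP-MSH 1 and NDP-MSH 2. Anterior pituitary genes had medians between -0.04 and 0.05, and choroid plexus genes between -0.21 and 0.15. Pan-neuronal genes were higher than PBS 2 in 13 of 14 (median 0.16), with medians of 0.03, -0.07, 0.08 and 0.03. They lay above both PBS arrays in 6 of 14, beside 16% of all genes. PBS 2, the array with the high inflammatory values, thus had the highest cerebellar and lowest pan-neuronal and cortical medians of the 4, and the part of tissue composition in the differences was not tested.

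Whether the effect differed between genotypes was tested as the e/e difference minus the wild-type difference. With limma, 0 of 22180 genes passed (0%), the smallest adjusted p was 0.126, and 1711 genes had an unadjusted p under 0.05. Without e/e PBS 1 the count was 7, without e/e PBS 2 it was 3, without wild-type NDP-MSH 2 it was 5 and without wild-type NDP-MSH 1 it was 1. The wild-type NDP-MSH arrays that enter this test had cerebellar medians of -1.81 and -1.67, values that no e/e array approached. The part of that difference in the test was not tested. The Y-linked list had medians from -0.12 to -0.01 in the wild-type arrays. In e/e they were -0.02 and 2.06 in PBS 1 and 2, and 2.64 and 2.68 in NDP-MSH 1 and 2. The part of sex in the genotype test was not tested either.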

How the data were processed

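Total brain RNA was hybridised as biotin-labelled cDNA to Affymetrix whole-transcript arrays, per the labels' protocols, 1 array for each of 8 samples. The deposited table holds the authors' processed values for 33793 probe sets, taken here as log2. The log base, summarisation and between-array normalization are not stated in the labels. Each probe set is centred to a median of 0 across arrays (largest row median 5e-07), so no absolute levels remain, and column medians lay between -0.0043 and 0.0142. The step of the stored numbers placed the signal before centring at 8 or above on all arrays for 7538 probe sets (tolerance 0.05 of a step). For 25729 others it was placed at 4 or above on all arrays and below 8 on at least 1.

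Probe sets with exactly 1 symbol (23521) were averaged per gene into 22180 genes, 1082 of them with more than 1. Those with several symbols (1814) or unnamed here (8458) were left out. Differences were tested with limma 3.58.1 in R 4.3.3, with 1 coefficient per group over 8 arrays (4 residual and 3.45 prior degrees of freedom), two-sided, Benjamini-Hochberg adjusted over all genes at 0.05, after a check on simulated data. Genes named are the 14 lower and 10 higher with the largest nearest difference, up to 10 lower and 6 higher resting on PBS 2 alone and up to 6 each on PBS 1 alone, the members of a list with the smallest p, melanocortin receptors, Nr4a1 and sex-linked genes; predicted, small RNA, olfactory-type receptor and antigen receptor segment genes were left out of the ranked parts. Further list members are shown to describe a list and were chosen after their values were seen. The comparison and the 49 gene lists were chosen with earlier results of these data known. Alternatives were a replicate block, array weights, only the e/e arrays, quantile normalization, median centring, single probe sets, genes with 1 probe set, bright probe sets, robust moderation, folds of 2 and 1.3, and leaving out each array. Promoter windows came from RefSeq (GRCm38.p6). Only the number of arrays, and no read depth, sets the precision. Figures used matplotlib 3.10.9.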

Additional observations from a re-analysis of the deposited data

Results flagged for a closer look

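The medians of 8 of the 49 gene lists moved in opposite directions in the 2 genotypes. For these lists both NDP-MSH arrays lay on one side of both PBS arrays in e/e and on the other side in wild-type. The difference between genotypes was not tested for any of these lists. The e/e effect minus the wild-type effect was -0.34 for cell cycle genes (-0.14 in e/e and 0.20 in wild-type), -0.26 for endoplasmic reticulum chaperones (-0.13 and 0.13) and -0.22 for glucocorticoid-responsive genes (-0.14 and 0.09). It was -0.21 for T cell genes (-0.14 and 0.08), -0.18 for endothelial activation and adhesion (-0.08 and 0.10) and -0.17 for cytosolic heat shock (-0.07 and 0.10). It was 0.15 for oligodendrocyte precursors (0.09 and -0.06) and 0.12 for B and plasma cells (0.04 and -0.08). Each effect is the mean of 2 array medians minus the mean of 2 others, on the log2 scale. The wild-type NDP-MSH arrays had cerebellar medians of -1.81 and -1.67, and the part of that in the wild-type effects was not tested. Sex-linked transcripts separated the e/e arrays, and the part of sex in the e/e effects was not tested. Within e/e, the list medians differed between the 2 PBS arrays. The median difference was -0.02 from PBS 1 and -0.23 from PBS 2 for cell cycle genes, -0.03 and -0.21 for T cell genes, and -0.15 and -0.00 for cytosolic heat shock, so these values rest largely on 1 PBS array. It was -0.16 and -0.12 for the chaperones, -0.09 and -0.14 for glucocorticoid-responsive genes, -0.06 and -0.09 for endothelial activation, 0.13 and 0.07 for oligodendrocyte precursors, and 0.06 and 0.02 for B and plasma cells.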

How the results depend on the processing

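With the replicate number as a replicate block, limma called 0 genes for e/e NDP-MSH against PBS and 0 for the difference between genotypes. The labels do not say that numbers pair samples, and the correlation of same-numbered deviations was 0.18 between the e/e arms, -0.10 between the wild-type arms, 0.44 between the PBS arms and -0.13 between the NDP-MSH arms. For e/e NDP-MSH against PBS, leaving out single arrays gave 0 to 51 calls; for the difference between genotypes it gave 0 to 7, quantile normalization 1, and bright probe sets 2. Genes 1.5-fold below both PBS arrays numbered 2 after quantile normalization: Xist, which is 1 of the 9, and Eomes. Genes below both numbered 1 with bright probe sets, 2 at 2-fold, 33 at 1.3-fold and 23 to 31 without 1 NDP-MSH array. Genes above both numbered 1 after quantile normalization, 0 with bright probe sets, 0 at 2-fold, 11 at 1.3-fold and 7 without 1 NDP-MSH array. Against PBS 2 alone, lower genes numbered 38 with bright probe sets, 168 at 2-fold and 534 at 1.3-fold, and higher genes 119 after quantile normalization, 34 with bright probe sets, 1 at 2-fold, 247 at 1.3-fold and 68 to 208 without 1 NDP-MSH array. Against PBS 1 alone, lower genes numbered 36, 4, 0 and 71 in the same order and 16 to 49 without 1 NDP-MSH array, and higher genes 7 after quantile normalization, 0 with bright probe sets, 41 at 1.3-fold and 14 to 42. Quantile normalization kept 296 of the 332 genes below PBS 2 alone. The bright filter asks for a signal of 8 or above on every array and so removes genes that dipped below it on any. Of single genes, leaving out single arrays gave differences of -0.01 to 0.63 for Atp6v1fnb, -0.07 to 1.21 for Cckbr and -0.03 to 1.04 for Lamp5, each of opposite sign against the 2 PBS arrays. Where counts moved for another reason than fewer genes, arrays or another fold, the cause was not tested.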
